A study of Mus musculus with 6 samples.

Results

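Cohesin and condensin, the complexes that hold and fold chromosomes, were followed at the RNA level in N2A cells, a mouse neuroblastoma line, to ask how their subunit genes respond when the long non-coding RNA Dali is depleted. Members were all probe sets annotated to exactly 1 of 10 gene symbols. These are Smc1a, Smc3, Rad21, Stag1 and Stag2 for cohesin and Smc2, Smc4, Ncapd2, Ncapg and Ncaph for condensin. Each gene had 1 probe set, so that 10 of the 19938 genes with a probe set of their own are described, 5 from each complex. The samples form groups of 3, all N2A cells that had been given 1.5 ug of plasmid for a short hairpin RNA by transient transfection and lysed 2.5 days later. The control group carried a non-targeting vector and the knockdown group a Dali knockdown construct. Both hairpins were driven by the U6 promoter. On these arrays a single construct against Dali was used, so that its other effects cannot be told apart from loss of Dali. The paper reports similar changes by RT-qPCR with further hairpins against Dali for most of the array genes it checked. The study calls the samples biological replicates without naming cultures or days, so the tests reflect only the variation among these 6 samples, part of which may be technical.

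Both complexes are built on a pair of SMC (structural maintenance of chromosomes) ATPases. In cohesin, SMC1A and SMC3 are closed into a ring by the kleisin RAD21, to which either STAG1 or STAG2 binds. The ring forms chromatin loops in interphase and holds sister chromatids together from replication until anaphase. In condensin, SMC2 and SMC4 are joined by a kleisin, NCAPH in condensin I, which carries the HEAT-repeat subunits NCAPD2 and NCAPG. Condensin I gains access to chromosomes when the nuclear envelope breaks down and compacts them for mitosis. SMC2 and SMC4 also serve condensin II, which has its own kleisin and HEAT-repeat subunits and resides in the nucleus throughout the cycle.

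Values are log2 RMA values, in which a difference of 1 is a doubling of signal. Levels of different probe sets were not read as relative amounts of RNA, also where Stag1 and Stag2 are subtracted within arrays below. Any pair of arrays correlated with an r between 0.990 and 0.997. Dali itself had 0 annotated probe sets, so its depletion on these arrays was not analysed here. Of the markers of the sympathetic lineage to which N2A cells belong, control means of log2 values were 13.2 for Chga, 13.5 for Stmn2, 12.2 for Hand2, 6.22 for Nefl and 5.92 for Nefm, each on the scale of its own probe set. Of 15 such markers 11 had a lower mean in knockdown arrays and 4 a higher one (list median -0.10), where 55.0% of all genes had a higher mean. All knockdown arrays lay below all control arrays for 5 markers (Phox2a, Hand2, Chga, Chgb and Mycn) and above them for 2. The share of all genes that lay below was not counted. The variance filter removed 9 of the markers, and 0 of the 6 tested were called by limma (0 with an unadjusted p under 0.05). Markers of fibroblasts (6 genes), glia (5), leukocytes (5) and endothelium (4) had medians of 0.06, 0.03, 0.06 and -0.02, and 0 of those tested were called, with or without the block described below. Because whole cultures were measured, a change in the share of cells at one stage of the cycle and a change of RNA per cell cannot be told apart.

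None of the cohesin or condensin genes passed the test, although all of them had a higher mean in knockdown cells. A probe set was called at a limma adjusted p under 0.1 and a fold of at least 1.3, over the 11705 probe sets that passed a filter on variance. Of the 9 members that passed this filter, 0 were called, where 1.14% of all tested probe sets were called in either direction and 0.367% as higher. Of those 133 probe sets 43 were higher and 90 lower, or 57 and 71 once each array was centred on its median, which left the members at 0. An unadjusted p under 0.05 was found for 5 of the 9, Smc3, Stag1, Ncapd2, Ncapg and Ncaph, and for 12.7% of all tested probe sets in either direction. A higher mean was found for 10 of 10 members, against 55.0% of all genes. The knockdown array exceeded the control array of the same replicate number in 29 of 30 comparisons. It did so in all 3 pairs for 9 of the 10 genes, against 21.5% of all genes. The median difference over the 10 genes was 0.29, and that over all genes 0.02.

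Arrays that shared a replicate number deviated together, and a fit with that number as a block removes this shared part. With the block, Stag1 and Ncapg were called, which is 2 of 9 members against 2.77% of tested probe sets called as higher. Without the 1.3-fold cutoff, 7 of the 9 had an adjusted p under 0.1 with the block, against 9.34% of tested probe sets in the higher direction, and the other 2 were Smc1a and Smc4. Calls with the block depended on which pairs were used, in fits that hold fewer arrays. Without the pair numbered 1, 2 or 3 the difference was 0.46, 0.48 and 0.44 for Ncapg. For Stag1 it was 0.52, 0.36 and 0.36. Without the arrays numbered 1, Stag1, Ncapg, Ncapd2 and Ncaph were called, 4 of 8 tested, against 3.7% of tested probe sets called as higher in that fit. Without those numbered 2, 0 of 8 members were called by limma (5 with an unadjusted p under 0.05), and 0 probe sets in all. Without those numbered 3, 0 of 9 were called (4 with an unadjusted p under 0.05), and 1 probe set in all.

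**Figure D1:**
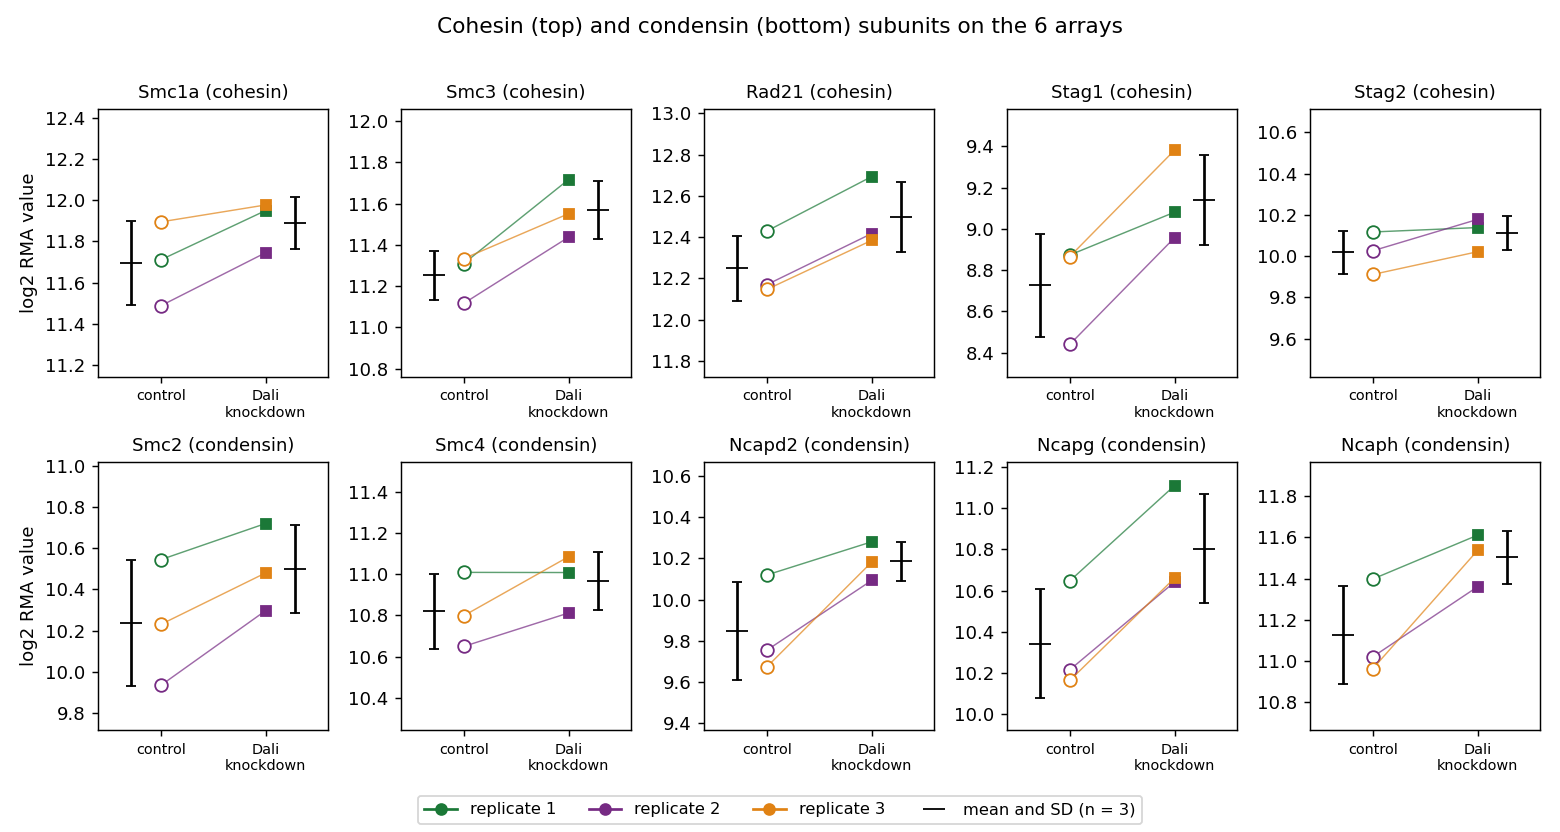
Log2 RMA values (vertical axes, all spanning the same range) of the 5 cohesin genes (top) and 5 condensin genes (bottom) in control (open circles) and Dali knockdown arrays (filled squares). Lines in one colour join arrays that share a replicate number, and means with their SD (n = 3) are drawn in black. All lines slope upwards except that of Smc4 for the arrays numbered 1, which is level, and the groups stand apart for Smc3 and Stag1.

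Among cohesin genes, Smc3 and Stag1 showed the largest differences and were the members whose groups did not overlap. Smc3 encodes the SMC subunit whose acetylation locks the ring onto replicated DNA. Its values were 11.31, 11.12 and 11.33 in control replicates 1, 2 and 3 and 11.72, 11.44 and 11.55 in knockdown replicates 1, 2 and 3. All knockdown arrays thus lay above all control arrays, as they did for 9.55% of tested probe sets. The difference was 0.32 (SE 0.14, 95% interval 0.02 to 0.61, limma adjusted p = 0.35). With the block the adjusted p of Smc3 was 0.044, but its 1.24-fold difference was under the 1.3-fold cutoff.

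Stag1 encodes one of the alternative STAG subunits, and it was the cohesin gene with the largest difference. Its values were 8.87, 8.44 and 8.87 in control replicates 1, 2 and 3 and 9.08, 8.96 and 9.38 in knockdown replicates 1, 2 and 3. Control replicate 2 was the low array and knockdown replicate 3 the high one, and the groups did not overlap. The mean went from 8.73 ± 0.25 to 9.14 ± 0.22 (SD, n = 3), a 1.33-fold difference of 0.41 (SE 0.16, 95% interval 0.08 to 0.75, limma adjusted p = 0.27). With the replicate block its adjusted p was 0.029, and it was called. The exact permutation test over the 6 arrays gave p = 0.1 for Smc3 and for Stag1, the smallest value it can give for 3 against 3 arrays.

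Stag2, which encodes the other STAG subunit, differed least. Its values were 10.12, 10.03 and 9.91 in control replicates 1, 2 and 3 and 10.14, 10.18 and 10.02 in knockdown replicates 1, 2 and 3, with overlapping groups. It was removed by the variance filter, and in the fit without the filter it differed by 0.09 (SE 0.09, limma adjusted p = 0.81). In that fit the 95% interval, -0.11 to 0.30, ended below the 1.3-fold cutoff of 0.38. Genes of low spread get a smaller SE there (0.07 for Nsmce1) than with the filter (0.13 for Nsmce4a). The interval of Stag2 can thus not be set beside those of the other members. Subtracted within each array, Stag1 minus Stag2 was -1.24, -1.59 and -1.04 in control and -1.06, -1.22 and -0.64 in knockdown replicates 1, 2 and 3. This contrast was chosen after the values were seen. The difference was higher in 3 of 3 pairs, by 0.32 on average, but the groups overlapped (exact permutation p = 0.3).

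For Smc1a and Rad21 the interval of the difference included 0. Smc1a, the X-linked partner of Smc3, had values of 11.71, 11.49 and 11.89 in control and 11.95, 11.74 and 11.98 in knockdown replicates 1, 2 and 3. Control replicate 3 lay above knockdown replicate 2, and the difference was 0.19 (SE 0.15, 95% interval -0.11 to 0.50, limma adjusted p = 0.63). Rad21, the kleisin that separase cuts at anaphase, had values of 12.43, 12.17 and 12.15 in control and 12.69, 12.42 and 12.38 in knockdown replicates 1, 2 and 3. Its difference was 0.25 (SE 0.14, 95% interval -0.05 to 0.55, limma adjusted p = 0.50). Rad21 had the most even pairs of all members, with differences of 0.26, 0.25 and 0.24, and its adjusted p with the block was 0.072.

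**Figure D2:**
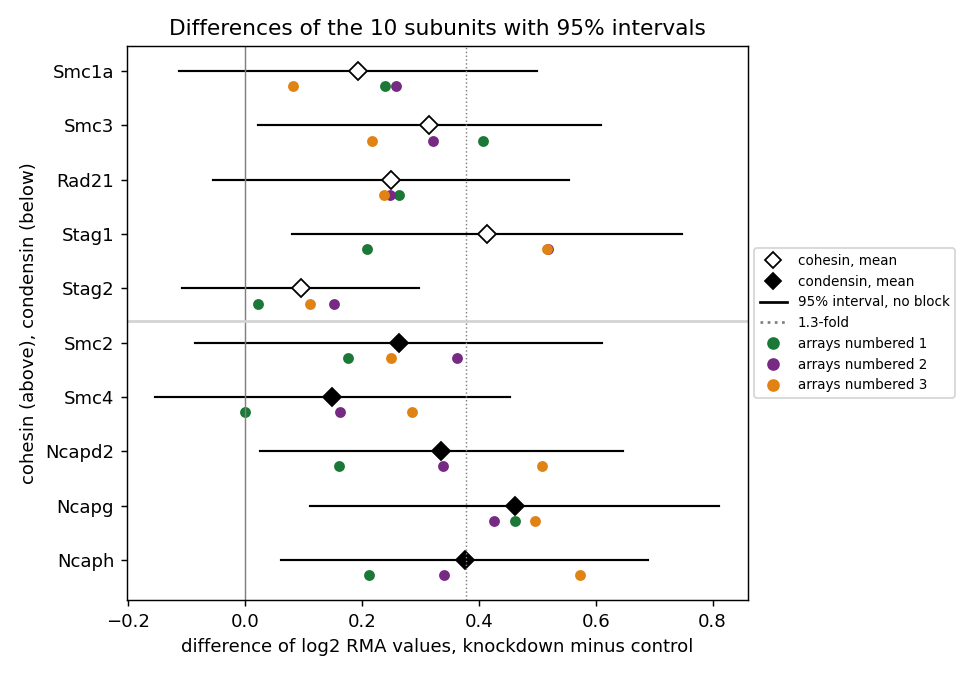
Log2 difference of knockdown over control (horizontal axis) for each member (vertical axis). Diamonds with lines are the mean difference and its 95% interval from limma without a block, for Stag2 from the fit without the filter. Coloured points show single pairs that share a replicate number, and the dotted line marks 1.3-fold. Intervals of Smc3, Stag1, Ncapd2, Ncapg and Ncaph lie above 0, and the means run from 0.09 for Stag2 to 0.46 for Ncapg.

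Among condensin genes the subunits specific to condensin I differed more than the SMC genes, as means over all arrays. This order was not kept without control replicate 3, where Smc2 differed by 0.26 and Ncapd2 by 0.25. Ncapg, a HEAT-repeat subunit, had the largest difference of all 10 members. Its values were 10.65, 10.22 and 10.16 in control replicates 1, 2 and 3 and 11.11, 10.64 and 10.66 in knockdown replicates 1, 2 and 3. The groups touched, since control replicate 1 lay just above knockdown replicate 2 (by less than 0.01). The mean went from 10.34 ± 0.27 to 10.80 ± 0.26 (SD, n = 3), a 1.38-fold difference of 0.46 (SE 0.17, 95% interval 0.11 to 0.81, limma adjusted p = 0.24). The 3 pairs differed by 0.46, 0.43 and 0.50, and with the block Ncapg was called (adjusted p = 0.013).

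Ncaph, the kleisin of condensin I, had values of 11.40, 11.02 and 10.96 in control and 11.61, 11.36 and 11.54 in knockdown replicates 1, 2 and 3. Its difference was 0.38 (SE 0.15, 95% interval 0.06 to 0.69, limma adjusted p = 0.29), or 0.039 as the adjusted p with the block. At 1.297-fold it lay just under the fold cutoff. Ncapd2, the other HEAT-repeat subunit, had values of 10.12, 9.75 and 9.67 in control and 10.28, 10.09 and 10.18 in knockdown replicates 1, 2 and 3. Its difference was 0.34 (SE 0.15, 95% interval 0.02 to 0.65, limma adjusted p = 0.35, or 0.052 with the block). For both genes control replicate 1 was the high control array, and the 3 knockdown arrays lay above the other control arrays.

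Smc2 and Smc4, which condensin I shares with condensin II, had the smallest differences of the condensin genes when all arrays were used. Smc2 had values of 10.54, 9.93 and 10.23 in control and 10.72, 10.30 and 10.48 in knockdown replicates 1, 2 and 3. The difference was 0.26 (SE 0.17, 95% interval -0.09 to 0.61, limma adjusted p = 0.54, or 0.073 with the block). Smc4 had values of 11.01, 10.65 and 10.80 in control and 11.01, 10.81 and 11.08 in knockdown replicates 1, 2 and 3. Its difference was 0.15 (SE 0.14, 95% interval -0.15 to 0.45, limma adjusted p = 0.75, or 0.30 with the block), and it was the single member with a pair that was not higher in knockdown cells. In order of the difference the condensin genes ran Ncapg, Ncaph, Ncapd2, Smc2 and Smc4, and no neighbours in this order were further apart than the SE of either.

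Set side by side, the complexes had medians within 0.09 of each other, and their arrays fell differently. The median difference was 0.25 over the cohesin genes (range 0.09 to 0.41) and 0.34 over the condensin genes (range 0.15 to 0.46). Within arrays numbered 1, 2 and 3 the cohesin median was 0.24, 0.26 and 0.22, and the condensin median 0.18, 0.34 and 0.50. Condensin was thus the lower in the pair numbered 1 and the higher in the others. Without control replicate 3 the condensin median minus the cohesin median went from 0.09 to -0.03, so these arrays do not order the complexes. No p is given for this contrast, since the members were chosen with earlier results known.

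The complexes parted mainly in the control arrays. Control replicate 1 was the highest control array for 5 of 5 condensin and 3 of 5 cohesin genes, as it was for 23.8% of tested probe sets. It lay above knockdown replicate 2 for 5 of 5 condensin genes but 1 of 5 cohesin genes, and for 50.6% of tested probe sets. For all 5 condensin genes, control replicates 2 and 3 lay below all knockdown arrays, so that the overlap of the groups came from control replicate 1 alone. Averaged over genes as deviations from each gene's mean, cohesin lay at -0.03, -0.27 and -0.09 in control replicates 1, 2 and 3, and condensin at 0.11, -0.32 and -0.27. In knockdown replicates 1, 2 and 3 the means were 0.20, 0.03 and 0.15 for cohesin and 0.31, 0.01 and 0.16 for condensin. The cohesin mean covers genes that went both ways in control replicate 3, which was the lowest control array for 2 of them (Rad21 and Stag2) and the highest for 2 others (Smc1a and Smc3).

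**Figure D3:**
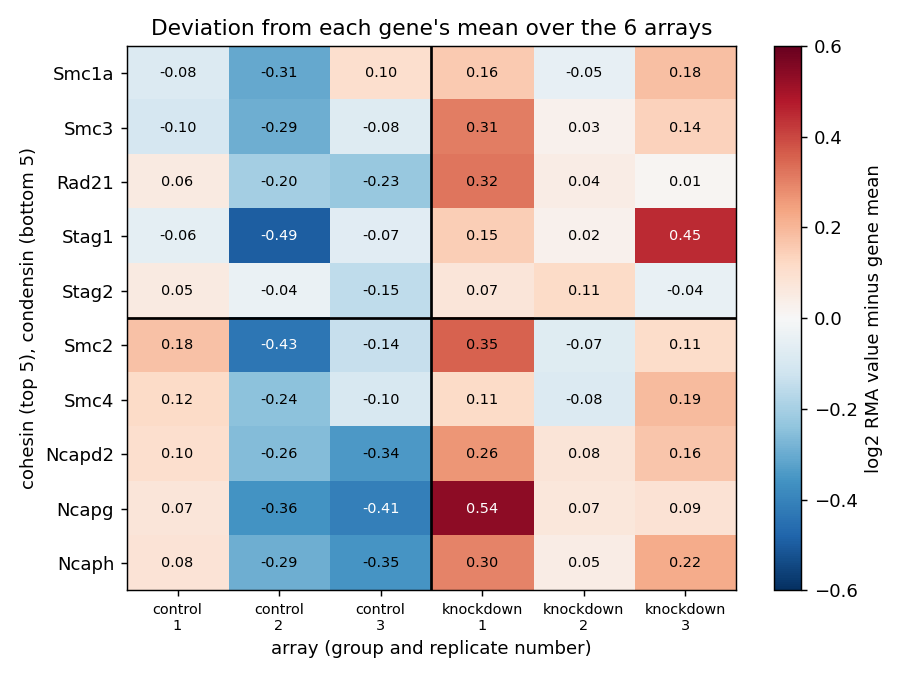
Log2 RMA value minus the mean of the gene over the 6 arrays (colour and printed number), with arrays in columns and cohesin (top) and condensin (bottom) genes in rows. Control replicate 1 is above 0 for all 5 condensin genes (0.07 to 0.18), and knockdown replicate 1 is above 0 for all 10 genes, up to 0.54 for Ncapg.

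Markers of the cell cycle varied over the same arrays. Markers of S phase, when cohesion is set up, averaged -0.13, -0.49 and -0.05 in control replicates 1, 2 and 3 on this scale, and 0.25, 0.01 and 0.41 in knockdown replicates 1, 2 and 3. Markers of G2 and M phase, when condensin acts, averaged 0.08, -0.39 and -0.21 in control and 0.29, -0.02 and 0.25 in knockdown replicates. The S phase mean lay below the G2 and M mean in control replicates 1 and 2 and knockdown replicate 1, and above it in the other arrays. The cohesin mean lay below the condensin mean in control replicate 1 and knockdown replicate 1. In knockdown replicate 3 the complexes were nearly level (0.148 for cohesin and 0.156 for condensin), which gives no firm order. The order of the marker lists and that of the complexes differed in control replicate 2. All 12 S phase and all 14 G2 and M phase markers were higher in knockdown cells by their mean, and the list medians were 0.43 and 0.35. Of the S phase markers tested, the helicase subunit gene Mcm6 rose (1.59-fold, limma adjusted p = 0.081) and 10 were not called. Mcm6 was no longer called without the variance filter (limma adjusted p = 0.19). Of the 14 G2 and M phase markers 0 were called by limma (9 with an unadjusted p under 0.05), and the 2 with the lowest p in the unfiltered fit were Cdk1 (0.32, adjusted p = 0.33) and Tpx2 (0.46, adjusted p = 0.18). With the block 6 of each list were called as higher, against the 2.77% of tested probe sets given above. The part of cell cycle stage in the differences of cohesin and condensin genes was not tested.

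Promoters of members were also searched for short sequence elements. The RefSeq promoter table (GRCm38.p6, 250 bases before to 50 after the start) matched 7 of the 10 genes, without Rad21, Stag2 and Smc4. Elements searched on both strands were the cell cycle homology region (CHR) TTTGAA, bound by complexes that repress mitotic genes outside G2 and M, and an E2F-like core (TTCCCGC or else TTGGCGC or else TTCGCGC or else TTGCCGC) of genes induced at the G1/S transition. The CCAAT box CCAAT, bound by NF-Y, was searched as well. A CHR match was present in 3 of 4 condensin promoters (Smc2, Ncapd2 and Ncapg) and 0 of 3 cohesin promoters, against 17.9% of all 32851 promoters. An E2F-like match was present in 3 of 4 condensin (Ncapd2, Ncapg and Ncaph) and 2 of 3 cohesin promoters (Smc1a and Stag1), against 9.57% of all. A CCAAT match was present in 3 of 4 and 2 of 3, against 37.4% of all. These are letter matches, and binding was not measured. Windows of 30 bases before the start are shown for the condensin CHR matches and for the upstream E2F-like matches of Ncapd2 and Stag1, 5′ to 3′ along the gene, with the match in capitals.
Ncapg CHR, chr5:45669883-45669912, plus strand: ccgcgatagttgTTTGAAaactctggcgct
Ncapd2 CHR, chr6:125191692-125191721, minus strand: cagccgttgaggTTTGAAcagggaattgcg
Smc2 CHR, reverse orientation, chr4:52439064-52439093, plus strand: tcgctttccatgTTCAAAacggtatagtct
Ncapd2 E2F-like, chr6:125191587-125191616, minus strand: tagcttgaaaaccatctcgttgtTTGGCGC
Stag1 E2F-like, chr9:100643418-100643447, plus strand: gcaaaaggccacgtTTCCCGCgccgctgct

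With the base before the start counted as -1, the CHR matches began at -30 in Ncapg, -123 in Ncapd2 and -145 in Smc2, and the E2F-like matches at -7 in Ncapd2 and -16 in Stag1. Smc2 held another CHR match at 27 after the start and Stag1 another E2F-like match at -192, and in Smc1a, Ncapg and Ncaph the E2F-like match lay after the start. Smc3, which differed by 0.32, held 0 matches to any of the 3 elements, and Smc1a, with an E2F-like and a CCAAT match, differed by 0.19, so a match did not go with a larger difference in every gene.

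Factors that act on the complexes, and related SMC and cohesin complexes, were measured in 7 further lists, together 45 genes. Of the 27 tested 0 were called by limma, 13 had an unadjusted p under 0.05 (12.7% of all tested probe sets), and 39 of the 45 had a higher mean, with a median difference of 0.14. With the block 11 were called as higher and 0 as lower, against 2.77% and 4.89% of tested probe sets. The median was 0.35 for condensin II, beside 0.34 for the condensin members above. Its HEAT-repeat genes Ncapd3 and Ncapg2 differed by 0.43 and 0.35 (limma adjusted p = 0.19 and 0.35, or 0.017 and 0.040 with the block), in both with all knockdown arrays above all control arrays. Its kleisin gene Ncaph2 differed by 0.10 (limma adjusted p = 0.86). Of the 3 genes, Ncapd3 was called with the block.

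The list of cohesin acetylation and cohesion establishment had the highest median of the 7 lists, 0.43 over 8 genes. Esco2, the acetyltransferase that modifies SMC3 in S phase, had values of 10.05, 9.68 and 9.45 in control and 10.54, 10.25 and 10.15 in knockdown replicates 1, 2 and 3. The groups did not overlap, and the difference was 0.58 (SE 0.16, limma adjusted p = 0.12, or 0.0093 with the block). Wdhd1, a replisome adaptor, differed by 0.49 (limma adjusted p = 0.13, or 0.012 with the block). Esco2, Wdhd1, Cdca5 (sororin, which protects cohesion), Chtf18 and Dscc1 (of the alternative clamp loader) were called with the block, and 0 of these 5 without it. Esco1, the acetyltransferase that is not tied to replication, differed by 0.06, and the SMC3 deacetylase gene Hdac8 by -0.09, and both were removed by the filter.

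Loading and release factors form the next list, of which 3 of 6 genes were removed by the filter. Over Nipbl, Mau2, Wapl, Pds5a, Pds5b and Ctcf the median was 0.16. Of 3 tested 0 were called by limma without the block (0 with an unadjusted p under 0.05). With the block 0 were called as well, while the unadjusted limma p was 0.048 for Pds5b and 0.018 for Ctcf. The genes with the smallest p were Pds5b (0.19, limma adjusted p = 0.62, or 0.16 with the block) and Ctcf (0.24, limma adjusted p = 0.54, or 0.089 with the block). At 1.18-fold Ctcf was under the fold cutoff. The loader genes Nipbl and Mau2 differed by 0.17 and -0.01. Of 7 genes for protection and cleavage of cohesin, the median was 0.22. Espl1 (separase, which cuts RAD21) differed by 0.55 and the mitotic kinase gene Plk1 by 0.38 (limma adjusted p = 0.12 and 0.27), and these 2 were called with the block. In the list of mitotic chromosome scaffold genes the median was 0.27 over 9 genes. Kif4, a chromokinesin that works with condensin I, differed by 0.49 and Top2a, the mitotic topoisomerase, by 0.44 (limma adjusted p = 0.18 and 0.22). With the block Kif4, Top2a and Smchd1 were called.

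**Figure D4:**
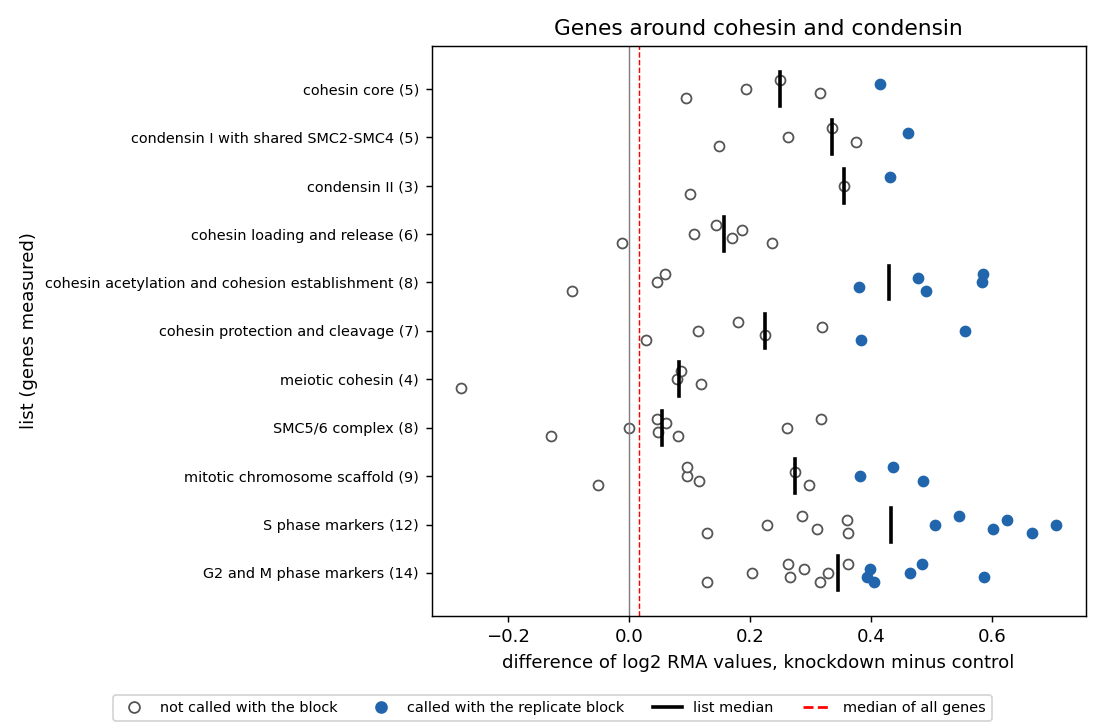
Log2 difference of knockdown over control (horizontal axis) for each gene of 11 lists (vertical axis, with the number of genes measured). Filled points were called with the replicate block, black bars are list medians and the dashed line is the median of all genes (0.02). Medians run from 0.05 for the SMC5/6 complex to 0.43 for S phase markers and for cohesion establishment genes.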

How the data were processed

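RNA of 6 N2A samples (3 control, 3 knockdown, grouped and numbered by the labels, 200 ng each) was hybridised to Affymetrix Mouse Gene 1.0 ST arrays. The authors background corrected CEL files by RMA, quantile normalised the arrays and summarised genes, and deposited log2 values (2.76 to 14.8). No versions of their tools are stated in those sources. Of 35556 rows, 21789 have 1 gene symbol and 1621 several in the platform annotation, and 12146 are not listed and stayed unnamed. Members were named from rows with 1 symbol. Of the 23410 annotated probe sets, 11705 had an interquartile range above the median (one reading of the study's variance cutoff of 0.5). This filter spans both groups and is thus not independent of the difference. limma 3.58.1 (lmFit, eBayes, two-sided) in R 4.3.3 compared the groups, with Benjamini-Hochberg adjustment over all probe sets kept, an adjusted p under 0.1 and 1.3-fold. Stag2 came from the fit without the filter.

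Deviations from group means of same-numbered arrays correlated at 0.14, 0.65 and 0.65 for numbers 1, 2 and 3. All were above 0.1, so the block is given where it changes a call. For number 1 another knockdown array correlated more (0.20). Simulated data held known changes and independent noise on each array. On them the fit without the block gave the right direction for all changes it called. In every set drawn the share of false calls was above the nominal threshold. Under independent noise, single calls of this fit close to that threshold are thus less firm than their adjusted p states. Arrays numbered 2 and 3 shared deviations here, so whether this holds for the measured arrays was not tested. Neither the fit with the block nor deviations shared by same-numbered arrays were simulated, so calls with the block were not checked in this way. Members and lists were chosen with earlier results of these data known. Named genes were all members and, per list, up to 4 called genes or else the 2 with the smallest unfiltered p. Other genes named were chosen after their values were seen. Alternatives covered the filter, thresholds, centring, the block and single arrays. Protein sequences were not used here.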

Additional observations from a re-analysis of the deposited data

How the results depend on the processing

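The number of members called was 0 in the main fit, and also without any one array (0 to 0), with median centring, without the variance filter, with unannotated rows included, with no fold cutoff, at an adjusted p under 0.05 and with a variance trend. With the replicate block it was 2. With the block and no fold cutoff, an alternative chosen after seeing the data, it was 7, and with the block and without replicate 1 it was 4, also chosen afterwards. For the 45 other genes of the pathway the count of 0 became 11 with the block, 19 with the block and no fold cutoff and 12 with the block and without replicate 1. Leaving out single arrays gave 0 to 4, with 1 without control replicate 1, control replicate 3 or knockdown replicate 3 and 4 without knockdown replicate 2. Over all probe sets the count of 133 became 53 and 63 without control replicates 1 and 2, 331 without control replicate 3, 4 without knockdown replicate 1 and 508 without knockdown replicate 2. It was 896 with the block, 41 without the variance filter, 32 at an adjusted p under 0.05 and 0 with unannotated rows included (limma, 1597 with an unadjusted p under 0.05). The cohesin median of 0.25 lay between 0.16 (without knockdown replicate 1) and 0.34 (without control replicate 1), and was 0.28 with median centring. The condensin median of 0.34 lay between 0.26 and 0.47. Condensin minus cohesin, 0.09, ranged from -0.032 without control replicate 3, where it reversed, to 0.13. The cause of these changes was not tested. Over the single members, 170 of 170 alternative values kept their direction. Of these, 130 were tested and not called, 13 were called, all with the block, and in 27 the filter had removed the member, so that no call was possible. Alternatives that change only the filter, thresholds, variance trend or block leave the difference as it was. Their agreement in direction was thus fixed in advance. The 0 members called at an adjusted p under 0.05 likewise followed from the 0 at the looser threshold. Without control replicate 2 or control replicate 3 the filter left 6 members each. With 3 arrays a group, precision is limited throughout.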

Other observations

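Genes of the third SMC complex and of meiotic cohesin were also measured. Over 8 measured genes of the SMC5/6 complex, which acts in repair and at stalled forks, the median difference was 0.05, and Smc5 and Smc6 differed by 0.08 and 0.05. Of 3 tested 0 were called by limma without the block (1 with an unadjusted p under 0.05). With the block 0 were called as well, while the unadjusted limma p was 0.0035 for Nsmce4a and 0.013 for Nsmce2. The genes with the smallest p were Nsmce4a and Nsmce2. Nsmce4a had values of 10.34, 10.33 and 10.31 in control and 10.69, 10.61 and 10.63 in knockdown replicates 1, 2 and 3, groups that lay far apart for their spread (0.32, limma adjusted p = 0.31, or 0.037 with the block, at 1.25-fold). Nsmce1, another non-SMC subunit, lay lower in all knockdown arrays, with a difference of -0.13, and was removed by the variance filter. Among meiotic cohesin genes Smc1b, Stag3 and Rad21l had control means of 6.26, 6.44 and 4.99, each on the scale of its own probe set. Rec8, the meiotic kleisin, lay at 10.1 in control cells and differed by -0.28, lower in 3 of 3 pairs (limma adjusted p = 0.56, or 0.095 with the block), which was opposite to Rad21.

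The genes whose values over the 6 arrays were most like the mean of each complex were also compared, among 10988 candidates outside the lists. For cohesin these were Drd2, a dopamine receptor gene, Lig1 and Pola1, which act in DNA replication, the chromatin protein gene Hmgb2 and Chaf1a of the chromatin assembly factor, with Pearson r of 0.994 to 0.997. For condensin they were Kif23, Kif18a and Cdc25c, which act in mitosis, Pold1 of a replicative DNA polymerase and Rad50, which acts in DNA repair, with r of 0.991 to 0.995. With 6 arrays many genes reached a high r, and 406 candidates for cohesin and 223 for condensin had r over 0.9, so the lists are a description. The arrays share the group difference, which enters every r.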
